A study of Mus musculus with 16 samples.

Results

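Rab proteins are small GTPases that sit on the membranes of vesicles and organelles and direct where those membranes move and fuse. The Rab genes of mouse dendritic cells were followed through high-salt culture and stimulation with lipopolysaccharide (LPS), the bacterial ligand of Toll-like receptor 4. Members were all genes whose array probe set is annotated to a single symbol made of Rab, a number and an optional lower-case letter, each represented by its probe set with the highest mean. The rule found 57 Rab genes among 19272 genes on the array. Of these, 39 exceeded the median of all values, 6.83 on the log2 scale, on at least 4 arrays and entered the test beside 10236 genes in all, and 18 did not. All 16 arrays exceeded that level for each of the 39 except Rab38, which did so on 10 arrays, and Rab4a, which did so on 9.

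Marrow of 4 C57BL/6 mice was turned into dendritic cells by the growth factor GM-CSF (10 ng/mL). Each mouse gave 4 cultures. A pair was kept at 290 mOsm/L, the normal osmolarity, and in the other pair NaCl was added from day 3 to reach 450 mOsm/L. On day 7 the cells were collected and plated for 6 hours, and of each pair 1 culture then received 10 ng/mL LPS. The 290 mOsm/L cultures without LPS are called unstimulated controls below. "Salt" means 450 minus 290 mOsm/L, and "LPS" means stimulated minus unstimulated at 1 osmolarity. The RNA of each culture was read on 1 Affymetrix Mouse Gene 1.0 ST array, and values are log2 expression, so a difference of 1 is a doubling. Age, sex and purity of the cells are not stated in the labels, and no gene was deleted or introduced.

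A Rab protein works as a switch. Exchange factors (GEFs) load it with GTP, so that it recruits effectors such as tethers and motor adaptors, and GTPase-activating proteins (GAPs) turn it off. The inactive protein, which carries a lipid tail, is drawn from the membrane by a GDP dissociation inhibitor (GDI). In dendritic cells Rab proteins direct the uptake of antigen, the maturation of phagosomes, the traffic of MHC molecules and the secretion of vesicles and cytokines. An array reads transcripts, and neither the amount of Rab protein nor its GTP-bound share was measured.

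The array medians lay between 6.78 and 6.93, and the lowest correlation of an array with others of its group was 0.990, for the 450 mOsm/L culture of mouse 4 without LPS. Of the dendritic cell markers, Cd74, H2-Ab1 and H2-Aa were highest, with means of 13.60, 13.37 and 13.29 in controls. There H2-Eb1 was at 12.82, Itgax at 12.13 and Ccr7 at 9.26. Near the filter level lay Batf3 (7.19), Clec9a (7.18), Flt3 (6.34) and Zbtb46, and 3 of 13 on the array (Cd209a, Xcr1, Kmo) were below the filter. The mean level of the 10 tested dendritic cell markers ran from 10.17 to 10.24 in controls. That of 12 macrophage markers ran from 11.14 to 11.23. The share of each cell type was not measured. The neutrophil markers moved with salt. Beside 23.7% of all genes, 16 of 17 were lower at 450 mOsm/L without LPS (median log2 change -2.44). With LPS, beside 21.8% of all genes, 14 of the 17 neutrophil markers were lower (median -1.43). Their mean level ran from 9.32 to 9.80 in controls, 9.47 to 9.86 with LPS, 6.88 to 7.02 at 450 mOsm/L and 7.51 to 7.70 at 450 mOsm/L with LPS. In such bulk RNA, fewer cells of a type and less RNA per cell cannot be told apart.

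LPS raised more Rab genes than it lowered at both osmolarities, while over all genes it lowered more than it raised. At 290 mOsm/L 31 of the 39 were called at an adjusted p of 0.05 in limma (Benjamini-Hochberg over 10236 genes), 19 higher and 12 lower. Over all genes 73.5% were called, 26.4% higher and 47.1% lower, against 48.7% higher and 30.8% lower among the Rab genes. At 450 mOsm/L 29 of 39 were called, 16 higher and 13 lower, beside 71.8% of all genes (26.4% higher, 45.3% lower). The median Rab change was 0.10 at 290 and 0.05 at 450 mOsm/L, and that of all genes -0.11 and -0.09. Cyclic loess normalization moved the median of all genes up, to 0.02 at 290 and 0.03 at 450 mOsm/L. The Rab splits were then 22 higher and 7 lower at 290 and 19 higher and 10 lower at 450 mOsm/L. In those fits 7597 and 7394 of all genes were called. Their directions were not counted, so these splits have no background beside them.

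Between the osmolarities, 13 Rab genes were higher with LPS in both comparisons, 11 were lower in both, none was called in opposite directions, and 3 were called in neither. Over the 10236 genes tested, 2189 were higher in both, 4135 lower in both, 140 opposite and 1831 called in neither. Of the other Rab genes, 7 were called at 290 mOsm/L alone and 5 at 450 mOsm/L alone, beside 1057 and 884 of all genes. Such a split says nothing of a difference unless the interaction was called. These comparisons share mice but no array.

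**Figure D1:**
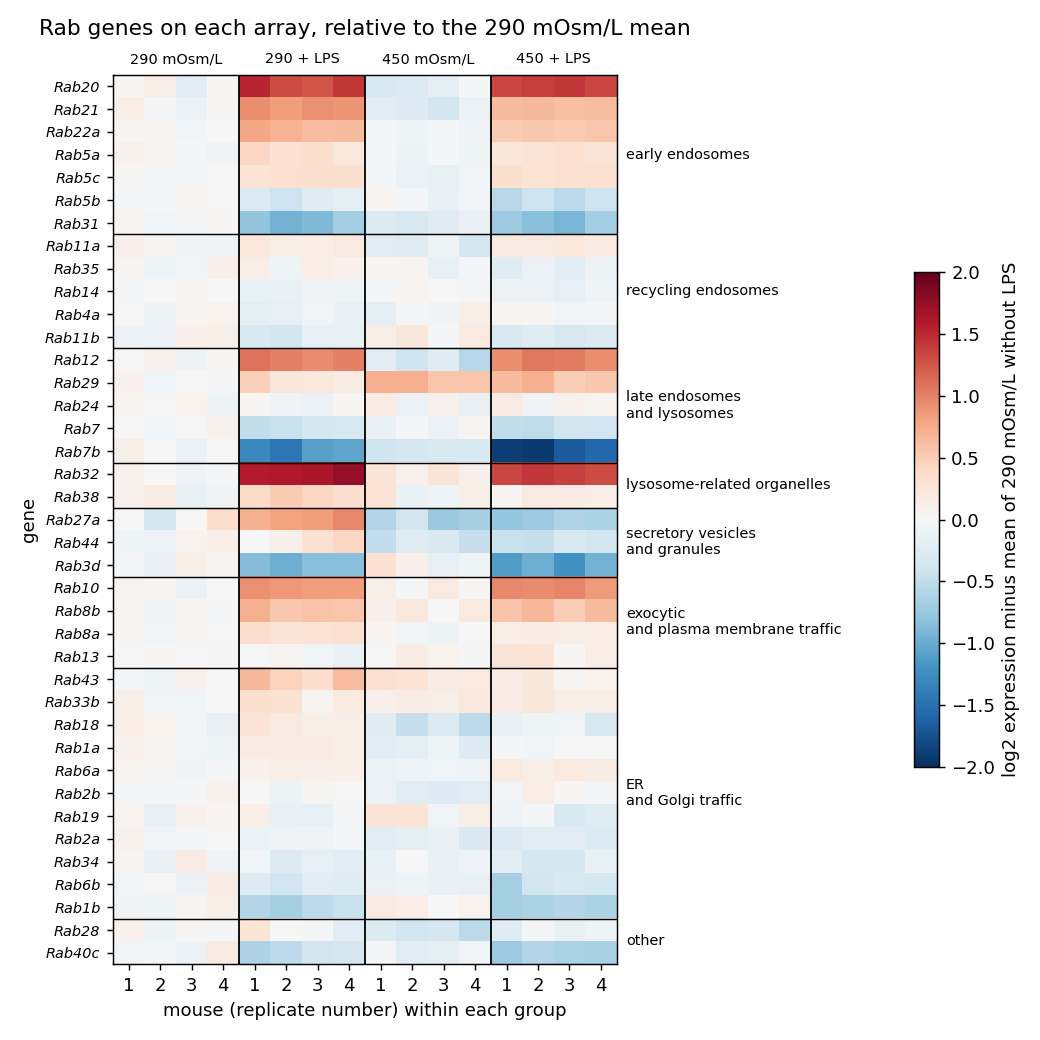
Each row is 1 of the 39 tested Rab genes, grouped by the membrane its protein is known for, and each column is 1 array (mice 1 to 4 in each of 4 groups). Colour gives log2 expression minus the gene's mean in the 4 unstimulated 290 mOsm/L cultures: Rab32, Rab20 and Rab12 are red in both LPS groups, Rab7b, Rab3d and Rab31 are blue there, and Rab27a is red at 290 mOsm/L with LPS and blue in both 450 mOsm/L groups.

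Early endosomes receive what a cell has just taken up, and all 7 tested genes of this class were called with LPS at both osmolarities, 5 higher and 2 lower, beside 73.5% and 71.8% of all genes. Rab20, which acts in phagosome maturation, read 8.63, 8.71, 8.37 and 8.63 in the 4 unstimulated controls and 10.12, 9.90, 9.84 and 10.00 with LPS. In the hyperosmolar medium it read 8.29, 8.32, 8.41 and 8.56 without LPS and 9.92, 9.98, 10.01 and 9.92 with it. The stimulated and unstimulated cultures did not overlap at either osmolarity. The log2 change was 1.38 (SE 0.08, 2.6-fold, limma adjusted p = 1.46e-11) at 290 and 1.56 (SE 0.08, adjusted p = 2.23e-12) at 450 mOsm/L. Rab21, which drives integrin and phagosome traffic, rose by 0.89 and 0.86, and Rab22a, a Rab of recycling from early endosomes, by 0.68 and 0.59.

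The 3 forms of Rab5, which organises early endosome fusion, did not move together. Rab5a rose with LPS from 10.40 ± 0.07 to 10.71 ± 0.08 (SD, n = 4) at 290 mOsm/L and from 10.34 ± 0.03 to 10.66 ± 0.03 at 450 mOsm/L. Rab5c rose from 11.23 ± 0.03 to 11.54 ± 0.02 and from 11.14 ± 0.05 to 11.53 ± 0.02. Rab5b fell from 10.21 ± 0.04 to 9.93 ± 0.10 (log2 change -0.28, limma adjusted p = 0.000244) and from 10.17 ± 0.08 to 9.74 ± 0.07 (-0.43, adjusted p = 1.69e-06). No culture with LPS overlapped its unstimulated group for any of the 3 genes. Rab5b was read by 2 probe sets, and their calls did not differ. Close relatives such as these can share probe sequence, which was not examined.

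Rab31, which carries cargo between the Golgi and endosomes, fell the most of this class. It read 10.33, 10.22, 10.23 and 10.29 in controls and 9.48, 9.33, 9.38 and 9.57 with LPS, a log2 change of -0.83 (SE 0.06, limma adjusted p = 1.05e-09). At 450 mOsm/L it read 10.00, 9.95, 10.02 and 10.12 without LPS and 9.54, 9.44, 9.35 and 9.58 with it, a change of -0.54 (SE 0.06). The 450 mOsm/L cultures thus started below the controls and ended at the same range under LPS.

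Recycling endosomes return receptors and MHC molecules to the surface, and the LPS changes of their 5 tested Rab genes did not exceed 0.42 in size. Rab11a, the central Rab of slow recycling, rose with LPS by 0.16 (SE 0.05) at 290 and 0.40 (SE 0.05, limma adjusted p = 2.21e-06) at 450 mOsm/L. Its relative Rab11b, also read by 2 probe sets, fell by 0.24 (SE 0.07) and 0.42 (SE 0.07), though at 290 mOsm/L its change was -0.13 (adjusted p = 0.123) under cyclic loess. Rab14, a Rab of phagosomes and recycling, was lower by 0.11 (SE 0.04) at either osmolarity, but cyclic loess gave 0.01 at 290 and -0.01 at 450 mOsm/L. Rab35 changed by 0.07 (adjusted p = 0.342) and -0.14 (adjusted p = 0.0493), and the latter had an adjusted p of 0.0533 with the mouse as a block. Rab4a, a Rab of fast recycling, lay near the filter level, with means from 6.74 to 6.89.

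Among late endosome and lysosome genes, Rab7b fell the most with LPS of all 39. Rab7b moves cargo from late endosomes to the Golgi and is known to dampen Toll-like receptor signalling in macrophages. It read 11.50, 11.37, 11.27 and 11.39 in controls and 10.09, 9.93, 10.30 and 10.32 with LPS. The 450 mOsm/L values were 10.98, 11.04, 11.07 and 11.08 without LPS and 9.49, 9.47, 9.71 and 9.81 with it. The 4 groups did not overlap with each other. The LPS change was -1.22 (SE 0.09, limma adjusted p = 5.34e-10) at 290 and -1.42 (SE 0.09, adjusted p = 5.43e-11) at 450 mOsm/L. Its relative Rab7, the general Rab of late endosome and lysosome fusion, had a mean of 12.21 in controls and fell by 0.40 (SE 0.06) and 0.38 (SE 0.06).

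Rab12, which sends receptors from recycling endosomes to lysosomes, rose. It read 9.42, 9.51, 9.33 and 9.47 in controls and 10.52, 10.44, 10.38 and 10.44 with LPS. Cultures at 450 mOsm/L read 9.21, 9.03, 9.19 and 8.86 without LPS and 10.36, 10.48, 10.47 and 10.36 with it. The unstimulated 450 mOsm/L cultures all lay below the controls, and the stimulated groups overlapped. The LPS change was 1.01 (SE 0.07, limma adjusted p = 2.4e-10) at 290 and 1.35 (SE 0.07, adjusted p = 3.77e-12) at 450 mOsm/L. Rab24, linked to autophagy, changed by -0.04 (95% interval -0.18 to 0.11) and 0.06 (-0.08 to 0.21), neither called.

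Rab32 and Rab38 serve lysosome-related organelles, and Rab32 is also known for defence against bacteria inside phagosomes. Rab32 showed the largest LPS change of the 39 at 290 mOsm/L. It read 9.22, 9.14, 9.06 and 9.10 in controls and 10.72, 10.73, 10.77 and 10.89 with LPS, a change of 1.65 (SE 0.06, 3.13-fold, limma adjusted p = 1.7e-14). In salt it read 9.38, 9.21, 9.38 and 9.23 without LPS and 10.47, 10.55, 10.50 and 10.44 with it, a change of 1.19 (SE 0.06, 2.28-fold, adjusted p = 1.47e-12). With LPS, every 450 mOsm/L culture lay below every 290 mOsm/L culture. Rab38, close to the filter level, was at 6.73 ± 0.14 (SD, n = 4) in controls and 7.14 ± 0.06 with LPS at 290 mOsm/L (log2 change 0.41), and changed by 0.09 (adjusted p = 0.349) at 450 mOsm/L.

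In the secretory class, Rab3d, which acts in regulated granule secretion, fell. Its values were 8.73, 8.64, 8.88 and 8.83 in controls and 7.91, 7.80, 7.93 and 7.94 with LPS. In salt they were 9.08, 8.87, 8.61 and 8.68 without LPS and 7.66, 7.80, 7.56 and 7.82 with it. Stimulated and unstimulated cultures were apart at both osmolarities, with changes of -0.88 (SE 0.09, limma adjusted p = 4.79e-08) and -1.10 (SE 0.09, adjusted p = 2.21e-09). Rab27a, described with salt, rose with LPS at 290 mOsm/L.

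Of 4 exocytic Rab genes, 3 rose with LPS at each osmolarity, beside 26.4% of all genes in each. Rab10, known to carry Toll-like receptor 4 to the surface of macrophages, read 10.87, 10.86, 10.70 and 10.82 in controls and 11.73, 11.68, 11.66 and 11.66 with LPS. At 450 mOsm/L it went from 10.90 ± 0.10 to 11.75 ± 0.05 (SD, n = 4). The changes were 0.87 and 0.86 (SE 0.05 each), and those of Rab8b, a Rab of transport to the plasma membrane, were 0.60 and 0.46 (SE 0.06 each). Rab8a rose by 0.29 and 0.16 (SE 0.04 each), the latter being 0.01 (adjusted p = 0.863) under quantile normalization. Rab13, of junctions and the cell edge, changed by -0.03 and 0.12, with adjusted p = 0.625 and 0.0882; with the mouse as a block the latter was called at 0.0484.

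The 11 tested genes of the endoplasmic reticulum and Golgi moved both ways. At 290 mOsm/L 4 were higher with LPS (Rab43, Rab33b, Rab1a and Rab6a) and 3 lower (Rab1b, Rab6b and Rab34), beside 26.4% and 47.1% of all genes. Rab18 joined the higher ones with the mouse as a block (adjusted p = 0.0152, against 0.0577 without). At 450 mOsm/L 4 of the class were higher and 4 lower, beside 26.4% and 45.3% of all genes. Rab1a and Rab1b both act in transport from the endoplasmic reticulum to the Golgi. Rab1b read 11.30, 11.29, 11.42 and 11.48 in controls and 10.79, 10.71, 10.84 and 10.93 with LPS, a change of -0.55 (SE 0.06, limma adjusted p = 8.52e-08), and -0.73 at 450 mOsm/L. Rab1a rose by 0.16 (SE 0.05) at each osmolarity, although quantile normalization gave 0.04 at 290 and -0.01 at 450 mOsm/L. Rab6a, of retrograde Golgi transport, rose by 0.10 and 0.25 (SE 0.04 each), while Rab6b fell by 0.28 and 0.30 (SE 0.07 each). Rab34 was lower by 0.18 and 0.17 (SE 0.07 each), with -0.07 and adjusted p = 0.339 and 0.363 under cyclic loess. Outside the classes, Rab40c, which serves in a ubiquitin ligase, fell by 0.46 and 0.54 (SE 0.07 each).

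**Figure D2:**
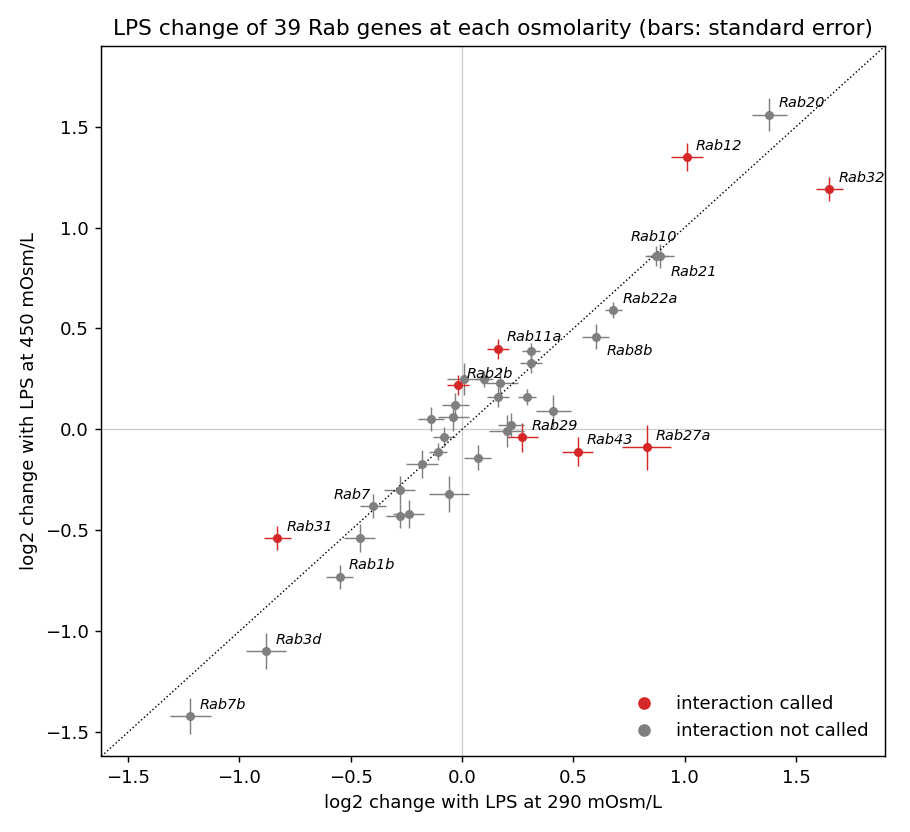
Each point is 1 of the 39 tested Rab genes, with its log2 change under LPS at 290 mOsm/L on the horizontal and at 450 mOsm/L on the vertical axis; bars are standard errors from the fit over 4 mice per group and the dotted line marks equal changes. Most genes lie near the line, from Rab7b at -1.22 and -1.42 to Rab20 at 1.38 and 1.56, and Rab27a, Rab43 and Rab32, in red for a called interaction, lie below it.

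RefSeq promoter windows of build GRCm38.p6 were matched for 46 of the 57 genes, and 4 motif cores were searched on both strands in the 250 bases before the start. Of the genes that rose with LPS at 290 mOsm/L, 4 hold the E-box CACGTG there, the palindrome that several basic helix-loop-helix factors recognise. Those genes are Rab20, Rab21, Rab5a and Rab27a, which are 4 of 17 raised genes with a window, against 0 of the 16 other tested genes with one. In all, the E-box lay in 5 of 58 Rab windows (8.62%) and in 6.02% of 32851 windows of all genes. The ISRE core of interferon-responsive promoters (TTTC, any 2 bases, TTTC) lay before Rab19 (2.98% of all windows), and the kappaB core of NF-kappaB (GGG, any 2 bases, TTTCC) before Rab15 and Rab28 (1.41%). The Nfat5 core TGGAAA, whose factor responds to salt, lay before 9 Rab genes (15.5% of Rab windows, 18.6% of all). For these 3 motifs the split went the other way. ISRE and kappaB each lay before 0 of 17 raised and 1 of 16 other tested genes, and Nfat5 before 1 and 3. The raised genes were defined by calls from these same data, and no split was tested. The windows of Rab20 (chr8:11478641-11478890, minus strand) and Rab5a (chr17:53478984-53479233, plus strand) are shown because they carry the E-box, in capitals, directly before the gene's outermost start.
Rab20: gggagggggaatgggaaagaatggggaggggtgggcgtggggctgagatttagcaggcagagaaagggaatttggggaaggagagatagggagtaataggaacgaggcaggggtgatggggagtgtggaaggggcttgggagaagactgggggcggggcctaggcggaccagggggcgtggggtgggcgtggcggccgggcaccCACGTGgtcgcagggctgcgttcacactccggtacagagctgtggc
Rab5a: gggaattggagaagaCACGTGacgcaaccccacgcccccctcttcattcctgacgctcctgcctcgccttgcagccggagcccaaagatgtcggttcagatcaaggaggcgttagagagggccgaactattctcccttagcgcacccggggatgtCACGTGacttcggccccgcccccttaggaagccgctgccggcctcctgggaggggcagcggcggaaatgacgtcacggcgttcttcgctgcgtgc
The E-box begins 46 bases before the start of Rab20, and its 2 copies 235 and 95 bases before that of Rab5a. In Rab21 and Rab27a it lies 30 and 246 bases before a start inside the span of the gene, and those windows are not shown. No 2 of the motifs searched overlapped in the windows shown. Such a match describes letters in a window, and binding was not measured.

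Salt moved the Rab genes less than LPS did, and mostly downward. Without LPS 16 of 39 were called, 3 higher and 13 lower, beside 44.3% of all genes (20.6% higher, 23.7% lower). With LPS 17 were called, 2 higher and 15 lower, beside 38.6% of all genes (16.8% higher, 21.8% lower). The median Rab change was -0.06 without and -0.09 with LPS, and that of all genes 0.00 in each. The split without LPS moved with the scaling, to 7 higher and 11 lower under quantile normalization, 8 and 12 under cyclic loess and 1 and 15 under median centring. Without mouse 1, 11 of the Rab genes were called with LPS in place of 17. Calls over all 10236 genes fell as well, to 2925 from 3956. Across the salt comparisons, which share no array, 7 Rab genes were lower in both and Rab29 was higher in both, while Rab32 and Rab43 were called in opposite directions. Over all genes tested, 1176 were lower in both, 796 higher in both and 302 opposite.

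Rab27a, which docks secretory vesicles and lysosome-related organelles at the plasma membrane, had the largest fall with salt. Its values were 7.66, 7.31, 7.67 and 8.02 in controls and 8.37, 8.46, 8.50 and 8.62 with LPS at 290 mOsm/L. In the 450 mOsm/L medium they were 7.07, 7.30, 6.92 and 6.99 without LPS and 6.89, 6.94, 7.06 and 7.03 with it. LPS thus separated the cultures at 290 mOsm/L and left those at 450 mOsm/L overlapping. The 450 mOsm/L values lay near the filter level of 6.83, where changes can be compressed, which was not measured. The salt change was -0.59 (SE 0.11, limma adjusted p = 0.000339) without LPS and -1.51 (SE 0.11, 2.84-fold lower, adjusted p = 9.94e-09) with LPS, lower in 4 of 4 mice each time. The LPS change was 0.83 (SE 0.11) at 290 and -0.09 (95% interval -0.32 to 0.14, adjusted p = 0.496) at 450 mOsm/L.

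Rab44, a large Rab with a calcium-binding motif known from mast cells, fell beside it. It read 7.50, 7.51, 7.66 and 7.69 in controls and 7.09, 7.34, 7.30 and 7.13 at 450 mOsm/L, a change of -0.37 (SE 0.08, limma adjusted p = 0.00161). With LPS it read 7.59, 7.69, 7.89 and 8.01 at 290 and 7.15, 7.13, 7.28 and 7.23 at 450 mOsm/L, a change of -0.59 (SE 0.08, adjusted p = 2.03e-05). The salt groups did not overlap. Rab27b, the close relative of Rab27a and also of secretory vesicles, lay below the filter, with means of 6.32 in controls and 5.91 at 450 mOsm/L, and of 6.51 and 6.00 with LPS. Fitted with no filter, it fell by 0.41 (SE 0.10, adjusted p = 0.00573) and 0.51 (SE 0.10, adjusted p = 0.00112), where 28.2% and 20.7% of all genes were called.

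Salt also moved marker genes of several myeloid cell types beside these 3 genes. Beside the 16 of 17 and 14 of 17 neutrophil markers that were lower with salt, all 6 tested of 10 mast cell and basophil markers were lower without LPS (median -1.13) and 3 were lower and 1 higher with LPS (median -1.20). The mean level of those 6 ran from 7.30 to 8.01 in controls, 8.12 to 8.85 with LPS, 6.24 to 6.38 at 450 mOsm/L and 7.10 to 7.26 at 450 mOsm/L with LPS. S100a9, S100a8 and Ngp, 3 of the neutrophil markers, fell from means of 12.17, 11.91 and 12.29 in controls to 7.05, 7.37 and 6.27 at 450 mOsm/L. These falls were among the largest of the list. Mmp8, the highest of the list in controls at 12.45, changed with salt by -0.34 and Cebpe by -0.11 without LPS. With LPS present, Lcn2 changed by -0.16 and Csf3r by 0.07. Of 12 macrophage markers, 7 were lower and 1 higher with salt without LPS (median -0.26), and 8 were lower with LPS (median -0.23). Of 5 tested monocyte markers, 2 were lower and 1 higher without LPS (median 0.25), and 3 were lower and 1 higher with LPS (median -0.94). Over all genes, 23.7% were lower and 20.6% higher with salt without LPS, and 21.8% and 16.8% with LPS. The interaction medians were 0.04 for the neutrophil, -0.01 for the mast cell and basophil, -0.15 for the macrophage and -0.92 for the monocyte list. In that order, 4 of 17 were called positive and 1 negative, 2 of 6 positive, 1 of 12 each way and 3 of 5 negative. Over all genes 21.1% were called. The 6 mast cell and basophil markers split, so their median hides both signs. Mcpt8 (-0.72), Prss34 (-0.57) and Cpa3 (-0.38) were negative, and Gata2 (0.72), Kit (0.57) and Hdc (0.37) positive. The part of any of these markers in the changes of Rab27a, Rab44 and Rab27b was not tested.

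Rab29, a Rab of the Golgi and of stressed lysosomes and a partner of the kinase Lrrk2, was higher with salt in both comparisons. It read 8.86, 8.71, 8.78 and 8.74 in controls and 9.49, 9.50, 9.32 and 9.32 at 450 mOsm/L, a change of 0.63 (SE 0.07, 1.55-fold, limma adjusted p = 2.13e-06). With LPS it lay between 8.92 and 9.25 at 290, with mouse 1 the highest, and read 9.41, 9.48, 9.26 and 9.31 at 450 mOsm/L, a change of 0.32 (SE 0.07, adjusted p = 0.00182). Neither pair of groups overlapped, although the highest 290 mOsm/L culture with LPS, at 9.25, came within 0.01 of the lowest at 450 mOsm/L.

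Rab7b fell with salt as it did with LPS, by 0.34 (SE 0.09, limma adjusted p = 0.00515) without LPS and 0.54 (SE 0.09, adjusted p = 9.82e-05) with it. Rab18, of the endoplasmic reticulum and lipid droplets, was at 8.93 ± 0.13 (SD, n = 4) in controls and 8.55 ± 0.14 at 450 mOsm/L, and at 9.10 ± 0.08 and 8.78 ± 0.12 with LPS. Its changes were -0.37 and -0.31 (SE 0.08 each). Rab21 fell by 0.24 and 0.27, Rab2a by 0.22 and 0.17, and Rab1a by 0.18 in each, the last 2 being Rabs of the early secretory pathway. Rab12, Rab28 and Rab31 fell without LPS, by 0.36, 0.37 and 0.25, and changed by -0.03, -0.14 and 0.04 with LPS, none of the latter called. Rab11a and Rab2b likewise fell without LPS, by 0.22 and 0.20, and changed by 0.02 and 0.04 with LPS, neither of the latter called. The difference itself was called for Rab12, Rab31, Rab11a and Rab2b but not for Rab28 (interaction 0.24, limma adjusted p = 0.171). Rab20 was lower without LPS by 0.19 with an adjusted p of 0.0499, which was 0.0511 with the mouse as a block, and changed by -0.01 with LPS.

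With LPS present, salt also lowered Rab35, Rab38, Rab22a, Rab8a, Rab5b and Rab40c, by 0.15 to 0.28, and raised Rab13 by 0.21. None of these 7 was called without LPS, and the interaction was called for none of them. Of these, Rab38 went from 7.14 ± 0.06 (SD, n = 4) at 290 to 6.86 ± 0.06 at 450 mOsm/L with LPS. Rab33b was not called without LPS (0.14, adjusted p = 0.0568) but was called with the mouse as a block (adjusted p = 0.0425). The salt changes of Rab5a, Rab5c, Rab7, Rab10, Rab14, Rab34, Rab8b and Rab3d passed the threshold in neither comparison. For Rab10, the 95% intervals were -0.04 to 0.19 without and -0.05 to 0.18 with LPS, and for Rab7 -0.18 to 0.06 and -0.17 to 0.08.

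**Figure D3:**
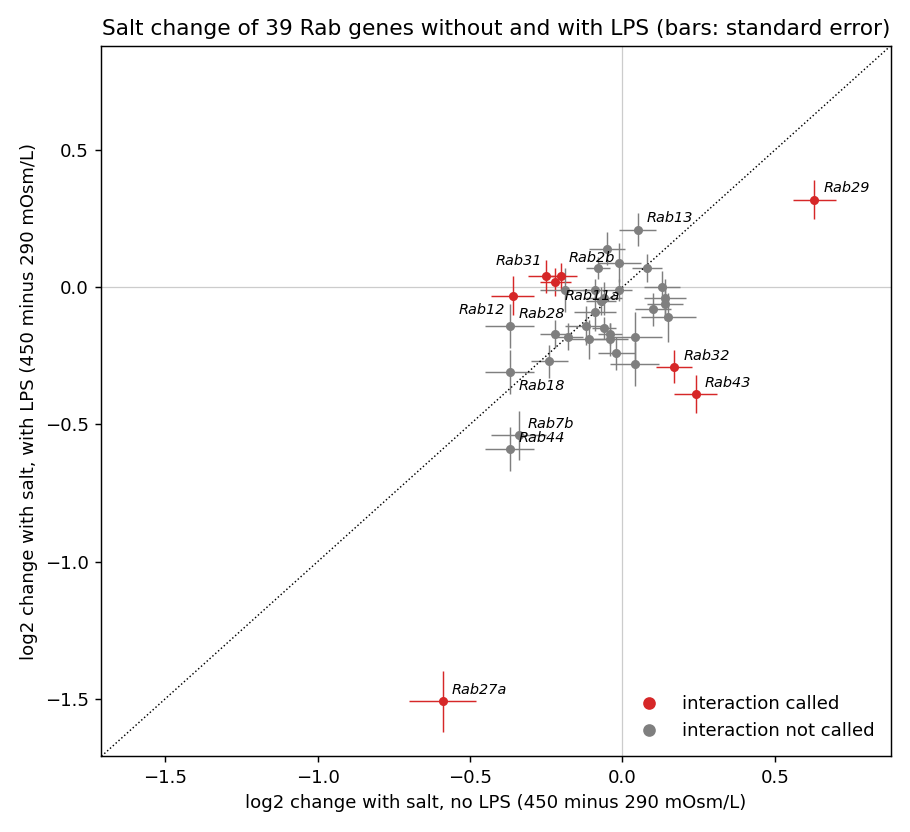
Each point is 1 of the 39 tested Rab genes, with its log2 change with salt (450 minus 290 mOsm/L) without LPS on the horizontal and with LPS on the vertical axis; bars are standard errors from the fit over 4 mice per group and the dotted line marks equal changes. Rab27a lies lowest at -0.59 and -1.51, Rab29 highest at 0.63 and 0.32, and Rab43 and Rab32 are right of zero and below it.

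The interaction asks whether the LPS change at 450 mOsm/L differs from that at 290 mOsm/L. It was called for 8 of 39 Rab genes, 4 in each direction, beside 21.1% of all genes (10.7% and 10.4%), so the count sits at the background. The even split did not hold without mouse 2 (0 higher, 4 lower) or without mouse 4 (1 higher, 3 lower). With no filter, 4 of 57 were called, beside 9.66% of all genes. The term was -0.91 for Rab27a (SE 0.16, limma adjusted p = 0.00033), -0.63 for Rab43 (SE 0.10, adjusted p = 0.000133) and -0.46 for Rab32 (SE 0.08, adjusted p = 0.000444), negative in 4 of 4 mice for each, and each of the 3 stayed called in every alternative run.

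Rab43, a Golgi Rab known for its role in antigen cross-presentation by dendritic cells, shows a crossing pattern. It read 9.28, 9.22, 9.40 and 9.32 in controls and 9.96, 9.76, 9.65 and 9.93 with LPS at 290 mOsm/L. At 450 mOsm/L it read 9.62, 9.59, 9.47 and 9.51 without LPS and 9.47, 9.54, 9.34 and 9.38 with it. The 450 mOsm/L cultures lay above the controls without LPS and below the stimulated 290 mOsm/L cultures with LPS, with no overlap in either comparison. Salt thus changed Rab43 by 0.24 (SE 0.07, limma adjusted p = 0.00929) without LPS and -0.39 (SE 0.07, adjusted p = 0.000226) with it. LPS changed it by 0.52 (SE 0.07) at 290 and -0.11 (95% interval -0.26 to 0.03, adjusted p = 0.156) at 450 mOsm/L. The first of the salt changes was no longer called without mouse 1 (0.21, adjusted p = 0.06), without mouse 2 (0.20, 0.0794) or under median centring (0.18, 0.0521).

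Rab32 crossed in the same sense, with salt changes of 0.17 (SE 0.06, limma adjusted p = 0.0219) without LPS and -0.29 (SE 0.06, adjusted p = 0.00066) with it. The unstimulated groups overlapped, and the call without LPS was lost without mouse 1 (0.17, adjusted p = 0.0567) or mouse 3 (0.12, 0.176), and without any of the single arrays of mice 3 and 4 at 290 or 1 and 3 at 450 mOsm/L (0.14 to 0.16, adjusted p 0.0527 to 0.0651).

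The other called interactions were smaller. For Rab12 the term was 0.34 (SE 0.10, limma adjusted p = 0.0187), lost without mouse 2 (0.27, 0.182) or mouse 4 (0.27, 0.0818). It was 0.28 for Rab31, 0.24 for Rab11a, 0.24 for Rab2b and -0.31 for Rab29, each with the same sign in 4 of 4 mice and adjusted p between 0.0286 and 0.0378. These 4 were lost in 10, 14, 8 and 14 of 31 alternatives, the unfiltered fit and several leave-one-out fits among them.

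**Figure D4:**
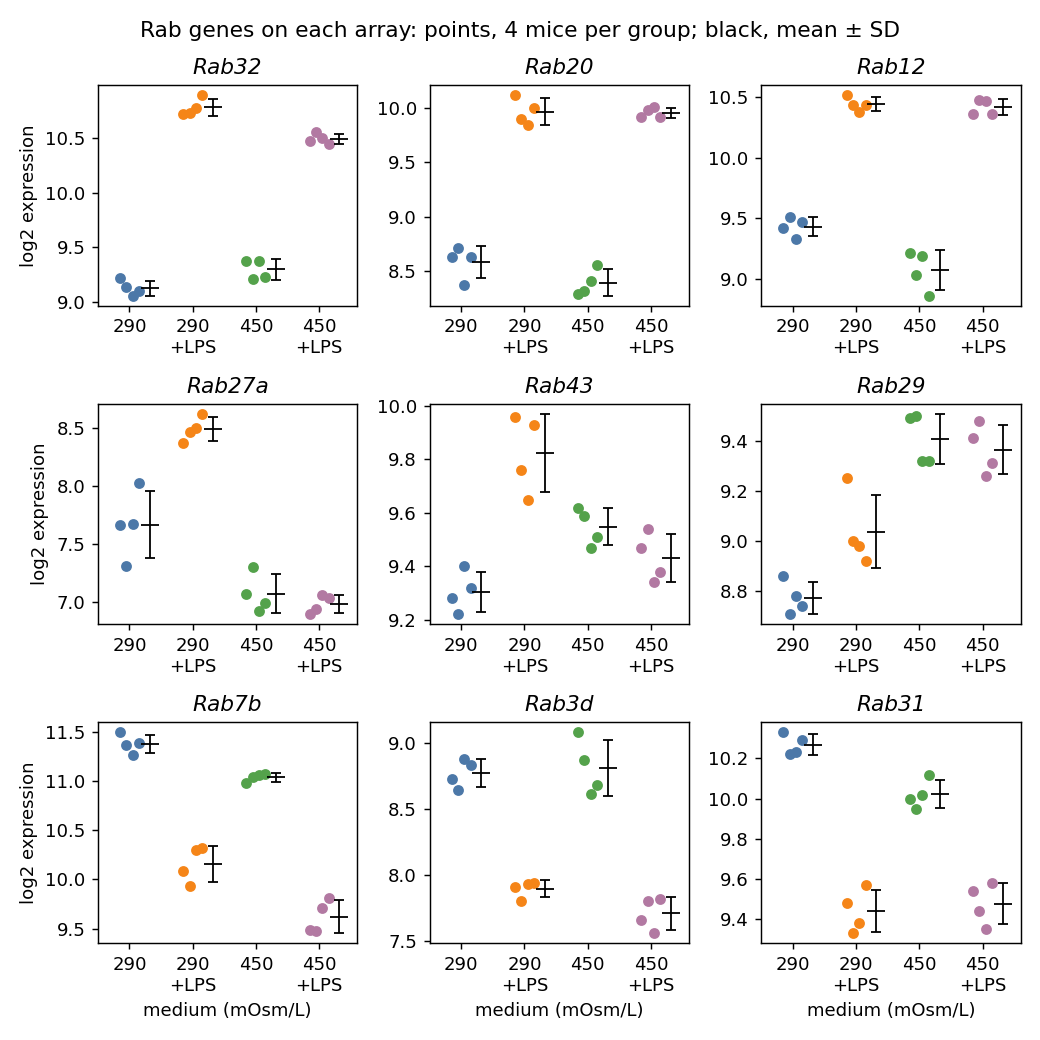
Log2 expression of 9 Rab genes on each array, by group on the horizontal axis; points are the 4 mice of a group and the black bar is the mean with its SD. LPS separates the groups of Rab32, Rab20, Rab12, Rab7b, Rab3d and Rab31 at both osmolarities, Rab27a stands at 8.37 to 8.62 only with LPS at 290 mOsm/L, and Rab29 lies above its 290 mOsm/L groups in both 450 mOsm/L groups.

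The 18 genes below the filter were Rab23, Rab17, Rab36, Rab37, Rab40b, Rab15, Rab3c, Rab26, Rab27b, Rab25, Rab3b, Rab42, Rab30, Rab3a, Rab39, Rab33a, Rab39b and Rab9b. Low values can be compressed, which would understate changes, and can also hold mostly background signal. Neither was measured here. With no filter, LPS called 45.4% of all genes at 290 and 42.0% at 450 mOsm/L, and salt 28.2% without and 20.7% with LPS. In the fit with no filter, Rab30, a Golgi Rab, rose with LPS from 5.02 ± 0.04 to 5.69 ± 0.22 (SD, n = 4) at 290 mOsm/L and from 5.05 ± 0.16 to 5.64 ± 0.05 at 450 mOsm/L, changes of 0.67 (SE 0.09, limma adjusted p = 2.89e-06) and 0.59 (SE 0.09). Rab3a, the Rab of synaptic vesicle release, fell with LPS by 0.33 and 0.34 (SE 0.06 each) and was higher with salt by 0.19 and 0.18. Rab39, of phagosome acidification, rose with LPS at 290 mOsm/L by 0.31 (SE 0.10, adjusted p = 0.0159). Rab25 and Rab33a were higher with salt without LPS, by 0.21 and 0.32, with adjusted p = 0.0439 and 0.0487.

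The regulators of the cycle were read from lists of genes, of which those on the array and above the filter were tested. The GDI, escort and prenylation list joins genes that keep Rab proteins soluble or attach their lipid tails with others, such as Rabac1. All 7 tested genes of this list were lower with LPS at 290 mOsm/L and 6 of 7 at 450 mOsm/L, beside 47.1% and 45.3% of all genes. Their medians were -0.30 and -0.33, and those of all genes -0.11 and -0.09. Gdi2, the broadly expressed GDI, read 11.95, 11.86, 11.90 and 11.89 in controls and 11.24, 11.17, 11.29 and 11.25 with LPS, a change of -0.66 (SE 0.05, limma adjusted p = 2.13e-09). Chml, an escort protein, fell by 0.52 and 0.74 (SE 0.07 each), and Rabac1, which helps release Rab proteins from GDI, by 0.54 and 0.52 (SE 0.05 each). Under cyclic loess 3 of the smaller falls at 290 mOsm/L were not called, those of Chm (-0.04), Rabggtb (-0.16) and Rabif (-0.11). With salt the subunits of the prenyl transferase went opposite ways: Rabggta rose by 0.33 without and 0.40 with LPS, and Rabggtb fell by 0.30 and 0.33.

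Of 31 tested GEFs, 14 were higher and 11 lower with LPS at each osmolarity, beside 26.4% of all genes higher at each and 47.1% and 45.3% lower. Their medians were 0.11 and 0.04, against -0.11 and -0.09 for all genes. Dennd3, the GEF of Rab12, read 7.84, 7.92, 7.69 and 8.11 in controls and 9.95, 9.85, 9.89 and 9.95 with LPS. The 450 mOsm/L cultures read 8.95, 8.80, 8.94 and 8.80 without LPS and 10.23, 10.29, 10.19 and 10.16 with it, and the 4 groups did not overlap. LPS changed it by 2.02 and 1.35 (SE 0.07 each) and salt by 0.98 without and 0.30 with LPS, so the interaction was -0.68 (limma adjusted p = 8.32e-05), opposite in sign to the 0.34 of Rab12. Rab3il1, a GEF of Rab8 that binds Rab3a, read 10.00, 9.77, 9.85 and 9.81 in controls and 7.28, 7.30, 7.28 and 7.17 with LPS, a change of -2.59 (SE 0.07). In salt it read 8.90, 8.94, 8.97 and 9.20 without LPS and 7.41, 7.15, 7.32 and 7.15 with it, so the stimulated groups overlapped.

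Dennd1a, a GEF of Rab35, rose with LPS by 0.88 at 290 mOsm/L, Rabgef1, a GEF of Rab5, by 1.02 at 450 mOsm/L, and Dennd4c, a GEF of Rab10, fell by 1.33 and 1.37. Salt without LPS raised Ric1, part of the Rab6 GEF, by 0.67 (SE 0.06) and lowered Rin2, a GEF of Rab5, by 0.46 (SE 0.06). Of the 31 GEFs, 8 were higher and 9 lower with salt without LPS, and 9 and 9 with LPS, beside 44.3% and 38.6% of all genes called.

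The GAP activity of the genes on the GAP list was not measured here. Of its 35 tested genes, 22 were lower with LPS at each osmolarity, beside 47.1% and 45.3% of all genes, and 9 and 7 were higher. Their medians were -0.32 and -0.31, against -0.11 and -0.09 for all genes. Tbc1d31 fell by 1.48 and 1.59 (SE 0.07 each) and Tbc1d22a by 0.91 at 290 mOsm/L. Tbc1d13, a GAP of Rab35, rose by 1.27 and 0.95 (SE 0.05 each), and Tbc1d9 by 1.47 (SE 0.06) at 450 mOsm/L. Salt called 12 of 35 without LPS (7 higher, 5 lower) and 10 with LPS (7 higher, 3 lower), where 44.3% and 38.6% of all genes were called; among those with LPS were Tbc1d9 at 0.66 and Tbc1d23 at -0.54.

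Of 41 effectors, 12 were higher and 18 lower with LPS at 290 mOsm/L, and 11 and 21 at 450 mOsm/L. Over all genes 26.4% were higher at each osmolarity and 47.1% and 45.3% lower, so the effector counts at 290 mOsm/L lie near the background. Rab11fip1, which binds Rab11 on recycling endosomes, read 8.97, 9.12, 8.88 and 9.24 in controls and 10.63, 10.84, 10.75 and 10.97 with LPS, and 11.55, 11.52, 11.55 and 11.53 with LPS at 450 mOsm/L. Its LPS changes were 1.74 and 2.21 (SE 0.07 each), while Rab11fip5, of the same family, fell by 1.48 (SE 0.08) at 290 mOsm/L. Plekhm1, which links Rab7 to lysosome fusion, fell by 1.21 and 1.35, and Mical1, an actin-oxidising effector, by 1.61 and 1.60. Micall1, an effector on recycling tubules, crossed: salt changed it by -0.32 (SE 0.06, limma adjusted p = 0.000535) without LPS and 0.43 (SE 0.06, adjusted p = 2.53e-05) with it, an interaction of 0.75 (adjusted p = 7.84e-06). With salt 11 effectors were higher and 7 lower in each comparison, beside 44.3% and 38.6% of all genes called. Fyco1, which joins Rab7 vesicles to kinesin, was higher by 0.34 and 0.53.

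**Figure D5:**
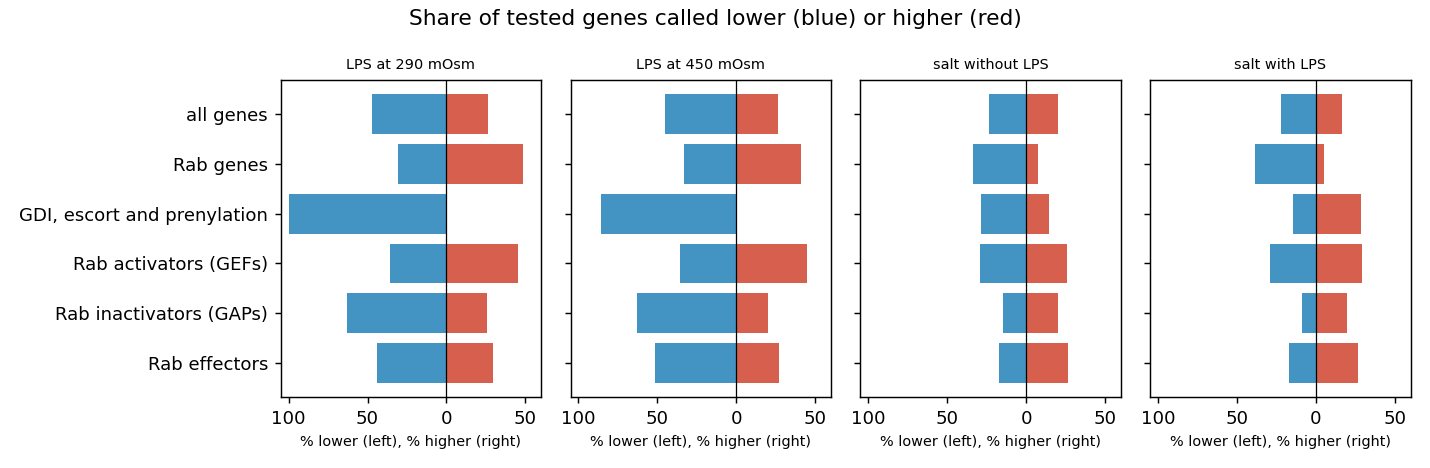
Bars give the percent of tested genes called higher (red, right of 0) or lower (blue, left of 0) in each of 4 comparisons. Shown are all genes, the 39 Rab genes, the 7 GDI, escort and prenylation genes, 31 GEFs, 35 genes of the GAP list and 41 effectors. With LPS at 290 mOsm/L 48.7% of Rab genes are higher against 26.4% of all genes, and all 7 genes of the GDI group are lower.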

How the data were processed

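The values are the deposited series table, log2 expression of 22549 probe sets on 16 arrays. The authors obtained them with RMA from the oligo package, per the submitters' processing notes; version and filters are not stated there. RMA includes a step that equalises the arrays, which can hide a shift common to most genes, and it compresses weak signals; the deposited arrays still differed in their medians (6.78 to 6.93). The platform annotation gives a single symbol for 20646 probe sets. Genes with at least 4 arrays above 6.83 were fitted with limma 3.58.1 in R 4.3.3 (4 group means, 12 residual and 5.53 prior degrees of freedom), two-sided, with Benjamini-Hochberg adjustment over 10236 genes and a threshold of 0.05; the script was tested on simulated data. The number of arrays limits the precision.

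The Rab genes, role classes, regulator and marker lists and motifs were chosen with earlier results of these data known. Named with values are the called Rab genes with the 6 largest rises and 6 largest falls in a contrast, a set list of well-known members, called interactions, and up to 4 called genes with the smallest adjusted p from each regulator list. Rab9 of that list is not analysed here. All 57 Rab genes were found in RefSeq.

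Replicate numbers pair the arrays: the labels assign 1 array of each group to every mouse. After subtracting group means, arrays of the same mouse had a median r of 0.0953 (24 pairs, -0.146 to 0.433), and arrays of different mice -0.0351. Alternatives were other filters, probe set choices, normalizations and variance models, array weights, the mouse as a block, and fits without each mouse or array.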

Additional observations from a re-analysis of the deposited data

Results flagged for a closer look

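The LPS change differed between osmolarities, by the interaction term in limma, for 8 of 39 Rab genes, beside 21.1% of all genes. The terms were -0.91 for Rab27a, -0.63 for Rab43, -0.46 for Rab32 and -0.31 for Rab29, and 0.34 for Rab12, 0.28 for Rab31, 0.24 for Rab11a and 0.24 for Rab2b. Marker lists of other cell types, given with the salt results, moved beside Rab27a, and their part in it was not tested.

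Among 156 sets of 4 arrays (a Rab gene in a group), 4 held an array apart from the rest by Dixon's criterion, where chance gives about 1 in 20. Rab19 was at 6.99 in the unstimulated 290 mOsm/L culture of mouse 2, with the others at 7.19 to 7.23. Rab2b was at 8.52 in that of mouse 4, with the others at 8.39 to 8.41. Rab1a was at 11.83 in the 290 mOsm/L culture of mouse 4 with LPS, with the others at 11.87 to 11.88. Rab6b was at 6.86 in the 450 mOsm/L culture of mouse 1 with LPS, with the others at 7.17 to 7.23.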

How the results depend on the processing

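Of 101 called results of single Rab genes, 67 kept direction and call in all 32 alternatives, or as many of them as could be fitted. Changes reversed for Rab14 with LPS at 290 mOsm/L under cyclic loess (0.01), Rab2b with LPS at 290 mOsm/L under cyclic loess (0.15, adjusted p = 0.0137) and Rab1a with LPS at 450 mOsm/L under quantile normalization (-0.01); the cause was not tested. With the mouse as a replicate block the counts were 16 and 17 for salt without and with LPS, 32 and 29 for LPS at 290 and 450 mOsm/L and 8 for the interaction; 2 calls were lost and 3 gained, each given beside its gene, and no other call changed. With no filter the interaction count was 4 in place of 8, from a fit over more genes. Leaving out mice or arrays gave 11 to 18 calls for salt with LPS and 4 to 10 for the interaction. The 11 came without mouse 1, where calls over all genes fell to 2925 from 3956. The interaction count was 4 without mouse 2 or mouse 4, and 5 without the unstimulated 290 mOsm/L array of mouse 4. Interaction calls over all genes fell too, from 2161 to 1383, 1627 and 1954 in these fits. All other counts of calls stayed within 1.5 times the main count. Signals near background limit the genes below the filter, Rab38 and Rab4a. The 450 mOsm/L values of Rab27a (6.89 to 7.30) and Rab44 (7.09 to 7.34) also lay near the filter level of 6.83. So did the lowest values of Rab19 (6.85) and Rab6b (6.86).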
